A study of Mus musculus with 14 samples.

Results

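The Tet plus Dnmt1 quadruple knockout (4KO) embryos were mouse embryos in which Tet1, Tet2, Tet3 and Dnmt1 had been edited together in the zygote with a cytosine base editor. Their members were taken by name from the deposited 4KO table, which holds 12 embryos with all 4 target sites read in each. The 9 embryos with a number (1, 2 or 3) at embryonic day (E) 7.5, E8.5 and E9.5 were read as edited, and the 3 embryos with the letter C, 1 for each stage, as controls. These 9 are 9 of the 88 embryo names in the 7 tables of the series, and 2 of its 14 labelled samples are 4KO samples. The embryos numbered 1 and 2 (6 embryos) carry the numbers of those samples, while the 3 embryos numbered 3 match no labelled sample and are given separately where it matters.

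The labels give C57BL/6 males and F1 females as the parents of all embryos. The methods name the females as B6D2F1, a cross of C57BL/6J with DBA2, and the sires as Oct4-EGFP transgenic males on a C57BL/6J background. Zygotes of the 4KO group were injected with mRNA of the editor hA3A-eBE3-Y130F, a Cas9 nickase joined to an engineered human APOBEC3A deaminase and a uracil glycosylase inhibitor, together with 4 sgRNAs. Control embryos are described by the study as having received the editor mRNA and no sgRNA. Genomic DNA of each embryo was amplified at each site and sequenced, and the tables give the share of reads with each base over a window of 26 bases. Read depth is unknown for these shares, so precision is described only by the spread between embryos. How embryos were picked for sequencing is not given in the sources used here. For injections against other sets of Tet and Dnmt genes, the paper reports that only part of the blastocysts were mutant at all targeted sites. Embryos named 4KO may thus have been picked for their edits, which would fix a large difference from controls in advance. Their conversion describes the sequenced embryos and is not the efficiency of the injection.

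TET proteins are dioxygenases that oxidise 5-methylcytosine and so start its removal, whereas DNMT1 copies methylation onto the new strand after DNA replication. Loss of both activities takes away the oxidation of the mark and its maintenance in the same embryo. A cytosine base editor turns C into U on the DNA strand displaced by the sgRNA, which is read as T after replication, and a C-to-T change at the first base of a CAG codon leaves the stop codon TAG.

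Each site had a single exact match in the GRCm38 chromosomes, and all 4 lie in coding exons of genes on the minus strand. The windows below are printed 5′ to 3′ on the gene's strand, with 3 flanking bases, the 20-base protospacer and the 3-base PAM, and the CAG codon to be turned into a stop is in capitals.
Tet1: aaaacacagtCAGgagaaacgcatgg
Tet2: tgaaattCAGgttctcaacgagcagg
Tet3: gcgggtagacCAGaagcccgactggg
Dnmt1: ccaatcaatCAGtggtggctcagtgg
Position 1 is the protospacer base farthest from the PAM, and the 3 bases upstream of it have negative numbers. A change such as C8T gives the reference base, its position and the base read.

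The Tet1 window lies at chr10:62839070-62839095 in exon 4 of 13 (transcript Tet1-206), where C8T gives Q1071* in a protein of 2038 residues. The Tet2 window lies at chr3:133488134-133488159 in exon 3 of 11 (Tet2-201), where C5T gives Q174* of 1911 residues. The Tet3 window lies at chr6:83404638-83404663 in exon 4 of 12 (Tet3-203), where C8T gives Q178* of 1802 residues. The Dnmt1 window lies at chr9:20923743-20923768 in exon 18 of 39 (Dnmt1-201), where C7T gives Q469* of 1619 residues. The stop falls 52.6% of the way along TET1 and 29.0% along DNMT1, but only 9.11% and 9.88% along TET2 and TET3. All complete coding transcripts of each gene in GENCODE M21 (2 for each Tet gene and 4 for Dnmt1) carried the stop.

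The first comparison asked whether each target carried the stop edit above the level read in control embryos. Conversion, the percentage of reads in which the target C was read as T, was at least 98.36% at every site of every edited embryo. Tet2, which encodes a TET protein without the CXXC domain found in TET1 and TET3, was the most complete, with a lowest value of 99.89%, a median of 99.92% and a highest of 99.94%. Tet3, which supplies the TET activity of the oocyte and zygote, ranged from 99.66% to 99.89% around a median of 99.81%. Tet1, a main TET enzyme of pluripotent cells, ranged from 98.90% to 99.87% with a median of 99.71%. Dnmt1 ranged from 98.36% to 99.54% with a median of 99.23%. The lowest Dnmt1 value came from E8.5 embryo 2, and the lowest Tet1 value came from E7.5 embryo 3, with 99.61% the next lowest there.

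The control embryos held far less T at these positions. At the Tet targets the 3 controls had between 0.0726% and 0.341% T. At Dnmt1 they had 2.36% at E7.5, 0.799% at E8.5 and 1.58% at E9.5, so the background was higher at Dnmt1 than at any Tet site in each of the 3 controls. Edited and control embryos did not overlap at any target. The mean conversion was 99.92% ± 0.0152 for Tet2, 99.81% ± 0.0786 for Tet3, 99.65% ± 0.290 for Tet1 and 99.12% ± 0.369 for Dnmt1 (SD, n = 9). The difference from controls was 99.72, 99.73, 99.50 and 97.54 percentage points in the same order, each with an adjusted p of 0.00455 in a two-sided exact permutation test, which is the smallest p that 9 against 3 embryos allow. Without the E7.5 control, the highest of the 3 at Dnmt1, each difference still passed (adjusted exact permutation p = 0.0182, n = 9 against 2).

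**Figure D1:**
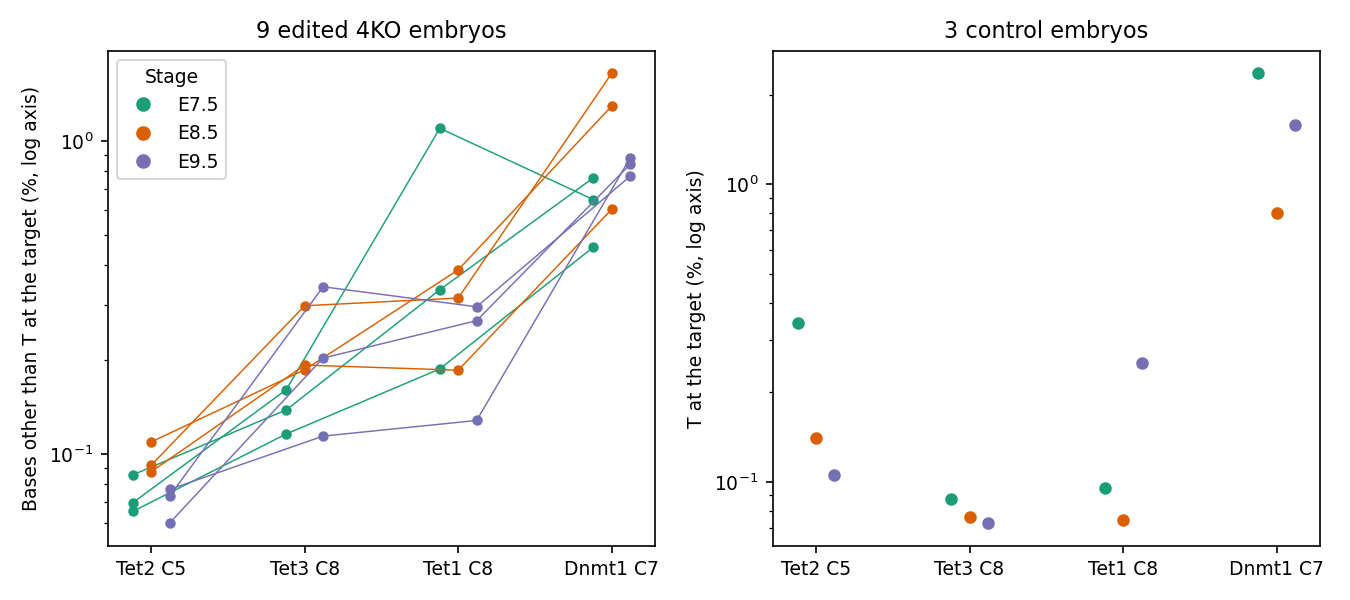
Left, share of bases other than T at the target C of each gene (percent, log axis) in the 9 edited 4KO embryos, with a line for each embryo and colours for stages. Right, share of T at the same positions (percent, log axis) in the 3 control embryos. In 8 of 9 edited embryos the Dnmt1 site has the largest share of bases other than T, and the exception is an E7.5 embryo with 1.10% at Tet1.

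The second comparison set the Tet sites against Dnmt1 within each embryo, where both were edited from the same injection. In all 9 embryos the mean conversion of the 3 Tet sites exceeded that of Dnmt1. The gap was 0.335, 0.576 and 0.207 percentage points at E7.5 (embryos 1, 2 and 3), 1.06, 1.41 and 0.450 at E8.5, and 0.775, 0.665 and 0.534 at E9.5. The widest gaps belonged to E8.5 embryos 1 and 2, and the narrowest to E7.5 embryo 3. The mean gap was 0.668 ± 0.373 points (SD, n = 9), with p = 0.00391 in a two-sided exact sign-flip permutation test, the smallest p that 9 embryos allow. In the 6 labelled embryos the mean was 0.804 ± 0.381. The 3 embryos without a labelled sample gave 0.397 ± 0.170, all above 0, where the exact sign-flip permutation test cannot go below p = 0.25.

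The 4 sites were compared pairwise within the embryos, and the order of the means (Tet2, Tet3, Tet1, Dnmt1) held in full in 6 of 9. Tet2 exceeded Tet3 in 9 of 9 embryos by 0.114 ± 0.0780 points, Tet1 in 9 of 9 by 0.275 ± 0.292, and Dnmt1 in 9 of 9 by 0.798 ± 0.359. Tet3 exceeded Dnmt1 in 9 of 9 embryos by 0.684 ± 0.340. These 4 pairs had an adjusted p of 0.00586 (exact sign-flip permutation tests, Benjamini-Hochberg over 6 pairs, n = 9). Tet1 exceeded Dnmt1 in 8 of 9 embryos by 0.523 ± 0.485 (adjusted exact p = 0.0234, n = 9), and E7.5 embryo 3 went the other way. Tet3 exceeded Tet1 in 7 of 9 embryos by 0.161 ± 0.303 (adjusted exact p = 0.0391, n = 9). These last 2 pairs were the less stable ones. Tet3 against Tet1 no longer passed without the embryos numbered 1 or those numbered 2, or without any 1 stage (adjusted exact p between 0.075 and 0.313, n = 6). Tet1 against Dnmt1 no longer passed without the embryos numbered 1 or 2, or without E8.5 or E9.5 (adjusted exact p between 0.125 and 0.156, n = 6).

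The reads that were not T differed in kind between the Dnmt1 and the Tet sites and, at Dnmt1, between embryos. Residual C, the unedited base, was at most 0.179% at Tet1, 0.0585% at Tet2 and 0.218% at Tet3 in any edited embryo. At Dnmt1 it was 0.409%, 0.710% and 0.600% in the 3 E7.5 embryos, 0.957%, 1.24% and 0.0793% in the 3 E8.5 embryos, and 0.0345%, 0.111% and 0.145% in the 3 E9.5 embryos. The 5 highest embryos, all of E7.5 and E8.5 and at or above 0.409%, thus stood apart from E8.5 embryo 3 and the E9.5 embryos, which had levels in the range of the Tet sites. Averaged over embryos, residual C at the Tet sites was lower than at Dnmt1, with a difference (Tet mean minus Dnmt1) of -0.401 ± 0.421 points (lower in 8 of 9 embryos, exact sign-flip permutation p = 0.00781, n = 9). E9.5 embryo 1 had a difference of 0.00567 in the other direction. The test no longer passed without the embryos numbered 2 (-0.300), those numbered 3 (-0.502), the E7.5 embryos (-0.345) or the E8.5 embryos (-0.266), each with an exact permutation p of 0.0625 (n = 6).

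A at the Dnmt1 target was lowest at E7.5 and highest at E9.5. It was 0.0198%, 0.0182% and 0.0164% at E7.5, 0.164%, 0.159% and 0.399% at E8.5, and 0.819%, 0.626% and 0.433% at E9.5. The 3 stages did not overlap in this share. Their order was seen among the shares of the 4 bases at the 4 targets and was not tested. Embryos of a stage cannot be told apart from their amplicon libraries. The controls had 0.266%, 0.0621% and 0.0743% A at E7.5, E8.5 and E9.5, and so did not follow that order. At the 20 Dnmt1 window positions without a reference C, the mean share of other bases in edited embryos was 0.05%, 0.35% and 0.35% at E7.5. It was 0.35%, 1.1% and 0% at E8.5 and 0%, 0% and 0.35% at E9.5, at the 2 decimals given there. E8.5 embryo 2, with the highest of these means, also had the lowest Dnmt1 conversion and the widest gap. The highest such mean in edited embryos was 0.476% at Tet1, 0.0162% at Tet3 and 0% at Tet2. How far this background enters the gap was not tested. High A was not limited to edited embryos, since the 2 control embryos of the Dnmt1-KO table had 1.78% and 2.30% A at this base, above every edited 4KO embryo. In Dnmt1-KO embryos of E9.5, edited with the same sgRNA alone, A at this base ranged from 0.0695% to 0.173% and residual C from 0.340% to 0.581% (n = 4).

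**Figure D2:**
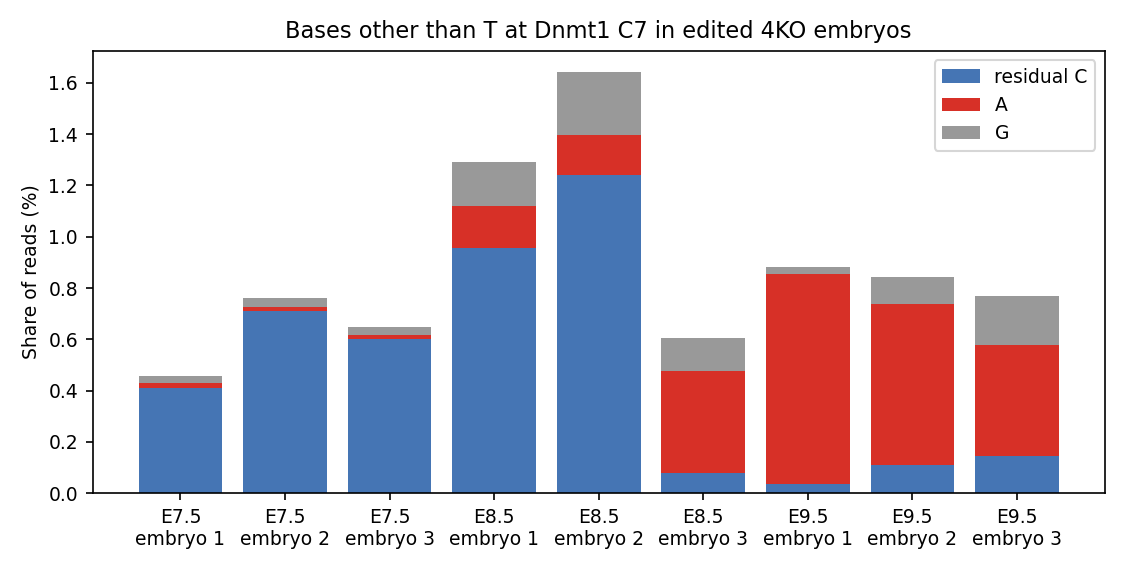
Stacked shares of residual C, A and G (percent of reads) at Dnmt1 C7 in each of the 9 edited 4KO embryos. Residual C makes up most of each bar at E7.5 and in E8.5 embryos 1 and 2, whereas A, at 0.399% to 0.819%, makes up most of it in E8.5 embryo 3 and at E9.5.

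The make-up of these reads bears on the gap. With conversion taken as T out of T and C alone, the gap was 0.363, 0.624 and 0.555 points at E7.5 and 0.846, 1.16 and 0.0213 at E8.5. At E9.5 it was -0.00540, 0.0368 and 0.0234. The mean fell from 0.668 to 0.402 ± 0.423 points (above 0 in 8 of 9 embryos, exact sign-flip permutation p = 0.00781, n = 9), and the 4 embryos with the most A at Dnmt1 had gaps of at most 0.0368 points. G at the targets stayed at or below 0.245%, with 1 exception: E7.5 embryo 3 had 0.971% G at Tet1, which was most of its 1.10% of bases other than T there.

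Beyond the targets, the 4 windows hold 19 further reference C positions, called bystanders because any change there accompanies the intended one. The windows are shown again with the target C and every bystander C in capitals where some base change reached a mean of 5%, or 10% in 1 edited embryo.
Tet1: aaaaCaCagtCaggagaaacgcatgg
Tet2: tgaaattCaggttCtCaacgagcagg
Tet3: gCgggtagaCCagaagcccgactggg
Dnmt1: ccaatCaatCagtggtggctcagtgg
These are 7 bystander positions with 9 base changes. The other 12 positions stayed at a mean of at most 0.444% T and at most 1% in any edited embryo, and 9 of them were listed at 0 in all 9.

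In a test over all 23 reference C positions, 5 were called higher in edited embryos (21.7% of positions, adjusted p under 0.05 by exact permutation). These were the 4 targets and Dnmt1 C3 (adjusted exact p = 0.0209 for each, n = 9 against 3). The count was 0 without the embryos numbered 1, those numbered 2, any 1 stage or the E7.5 control, and 6 without the embryos numbered 3. With fewer embryos the smallest possible exact permutation p is larger, for example 0.0119 for 6 against 3. At such a p, 5 positions alone cannot pass the adjustment over 23. The counts of 0 thus reflect the group sizes and do not show that the positions lost their difference. Without overlap between edited and control embryos were 8 positions (34.8%), namely these 5 and Tet1 C4, Tet2 C13 and Tet3 C7. Tet1 C4 and Tet3 C7 missed the threshold (adjusted exact p = 0.0523 and 0.0597, n = 9 against 3), as did Tet2 C13 (adjusted exact p = 0.651).

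Dnmt1 C3 was the most converted bystander. It had 78%, 72% and 80% T at E7.5, 91%, 91% and 53% at E8.5, and 60%, 85% and 72% at E9.5, with a mean of 75.8% ± 13.1 (SD, n = 9). The controls had 7%, 0% and 1%, the first of them the E7.5 control that also had the highest T share at the Dnmt1 target. Every other read in the edited embryos had C at this position, so the base stayed between 9% and 47% unedited in the same amplicons in which C7 was at least 98.36% T. The change is synonymous (I467I, ATC to ATT).

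Tet1 had a frequent and an occasional bystander in a single histidine codon. C4T, synonymous (H1069H), was at 64%, 56% and 38% at E7.5, 49%, 12% and 13% at E8.5, and 45%, 62% and 9% at E9.5, against 0% in the controls. Its mean of 38.7% ± 22.03 (SD, n = 9) covers a range of 9% to 64%, with 3 embryos at or below 13%. C2T, which changes the residue (H1069Y), was at 38% in E9.5 embryo 1, at 3% or 4% in 3 embryos, and at 0% in the other 5.

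Tet2 bystanders lay on the PAM side of the target, in the leucine codon at residue 176. C11T (L176F) reached 40% in E8.5 embryo 1 and 16% in E7.5 embryo 1, was between 3% and 5% in 4 embryos, and was 0% in 3. C13T (L176L, synonymous) reached 26% in E7.5 embryo 3 and 9% in E8.5 embryo 2, and was between 1% and 4% in the other 7. Different embryos led at the neighbouring positions, and both positions were at 0% in all controls.

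Tet3 C7 differed from all other bystanders in that no edited embryo kept the reference base. C was listed at 0% in 9 of 9 edited embryos and at 100% in 3 of 3 controls. T, G and A shared the reads in proportions that changed from embryo to embryo. T ranged from 7% to 62% with a median of 42%, G from 8% to 82% with a median of 45%, and A from 1% to 70% with a median of 2%. G was the most frequent base in 4 embryos, T in 4 and A in 1. The embryos led by T were E7.5 embryo 1 (62%), E8.5 embryo 3 (53%) and E9.5 embryos 1 and 2 (55% each). E8.5 embryo 2 stood apart with 70% A, followed by E9.5 embryo 1 with 36% and E7.5 embryo 2 with 20%. T is synonymous there (D177D), while G and A both turn the aspartate next to the stop into glutamate (D177E), and together they made up between 38% and 92% of the reads.

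**Figure D3:**
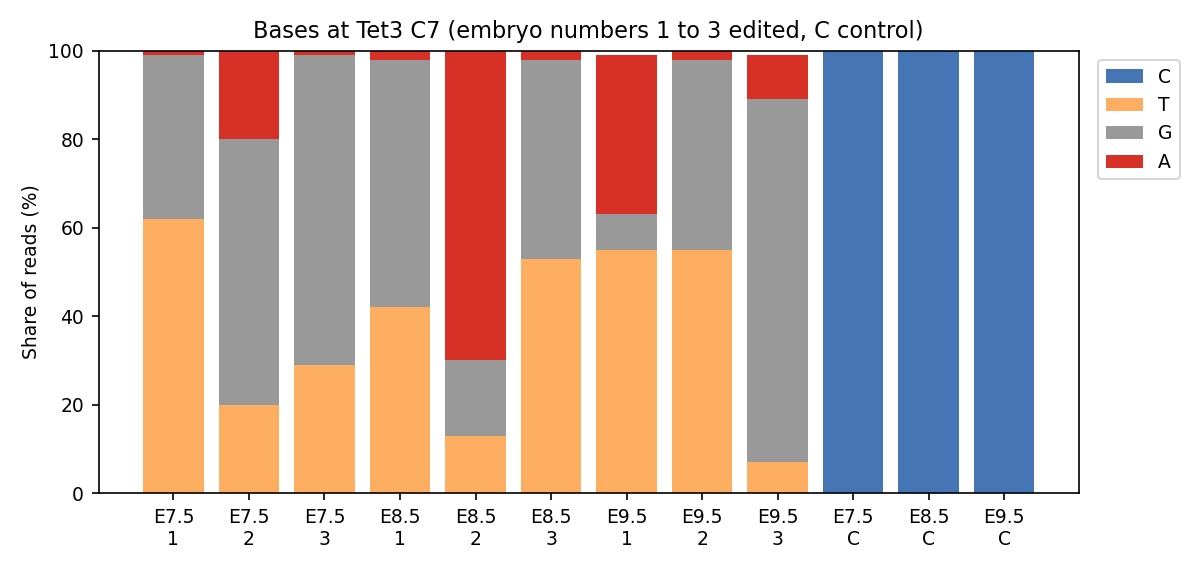
Shares of the 4 bases at Tet3 C7 (percent of reads, stacked) in the 9 edited 4KO embryos, numbered 1 to 3 at each stage, and in the 3 control embryos (C). The controls are at 100% C and the edited embryos at 0%, with T, G and A in proportions that differ from embryo to embryo.

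A neighbouring contrast within that window was the target itself: C8, the next base, was at least 99.66% T in all 9 embryos, with at most 0.0650% A and 0.0898% G. The Tet3 window also held a change outside the protospacer. C-2T (R175W), in the 3 flanking bases, was at 24% in E7.5 embryo 3, at 1% or 2% in 4 embryos and at 0% in 4. E7.5 embryo 3 was thus the highest of the 9 at Tet2 C13 and Tet3 C-2, and it had the most named changes at or above 10% (6 of 9, against 3 to 5 in the others). No other embryo reached 10% at Tet2 C13 or Tet3 C-2, and a single embryo at that level is enough for a change to be named. Its lead in this count thus depends on how the changes were named.

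The C positions were also sorted by the preceding base, since APOBEC3A is known to prefer a C that follows a T. Within protospacer positions 1 to 8, the 4 C that follow T had mean T shares of 75.8% to 99.92%, and the 4 that follow another base ranged from 5.44% to 99.8%. Outside these positions the range was 0% to 8.11% for 3 C after T and 0% to 3.33% for 11 C after another base, and the C that opens the Dnmt1 window, whose preceding base is not in the table, was at 0%. The highest of the 4 after another base was the Tet3 target, which follows a C, and its mean lay below that of Tet2 and above those of Tet1 and Dnmt1. Of the 4 C after T in positions 1 to 8, all but Dnmt1 C3 are targets, whereas only the Tet3 target is among the 4 others. The preceding base and being a target thus cannot be told apart here. The T share also leaves out the G and A reads at Tet3 C7, 1 of these others, where no C was left. The positions share windows and embryos, so these are descriptions of 23 positions and no test was made.

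**Figure D4:**
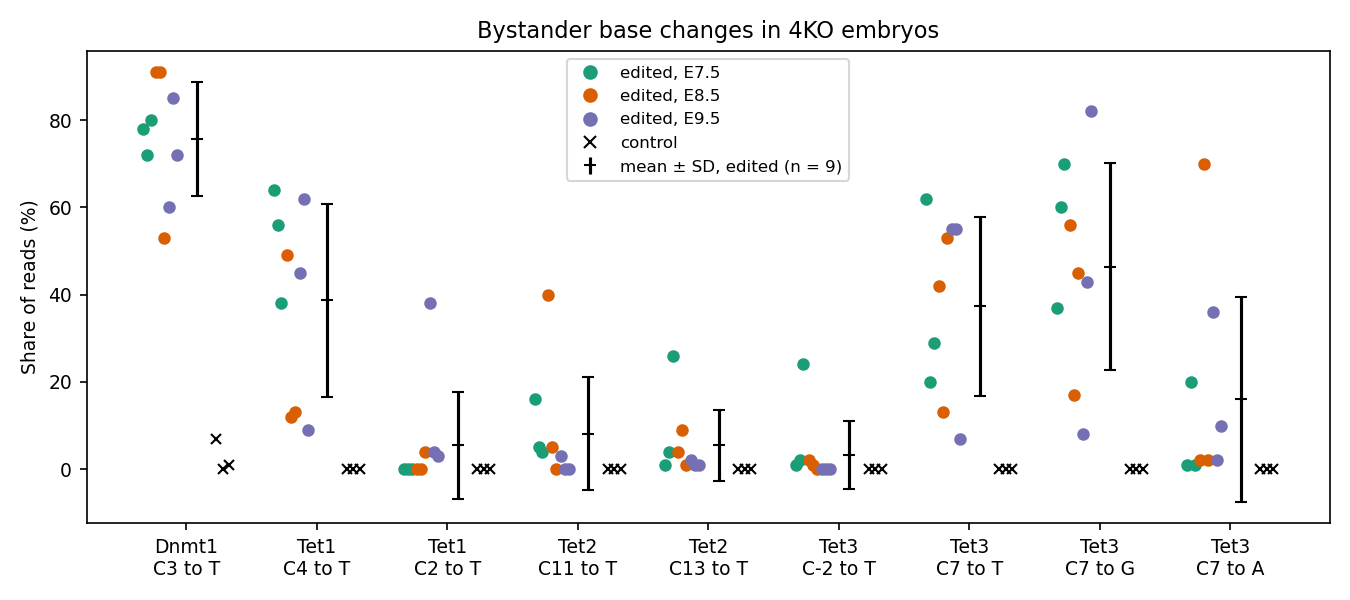
Share of reads (percent) with each named bystander change in the 9 edited 4KO embryos (dots, coloured by stage), the mean with SD over them (bar, n = 9), and the 3 controls (crosses). Dnmt1 C3, Tet1 C4, Tet3 C7 and, at 1% to 26%, Tet2 C13 are changed in every edited embryo, while Tet1 C2, Tet2 C11 and Tet3 C-2 are at 0% in 3 or more of them.

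Stages were compared over the 4 targets and the 9 named bystander changes. None of the 13 values differed between E7.5, E8.5 and E9.5 after adjustment (0 called, 0%, lowest adjusted p = 0.464, exact permutation of the between-stage variance), and 1 had an unadjusted p under 0.05. That was Tet2 conversion, at 99.926%, 99.904% and 99.930% on average (exact permutation p = 0.0429, n = 3 for each stage). Dnmt1 conversion averaged 99.38% ± 0.154 at E7.5, 98.82% ± 0.528 at E8.5 and 99.17% ± 0.0563 at E9.5 (adjusted exact permutation p = 0.522, n = 3 for each stage). With 3 embryos at each stage, these values leave room for differences between stages that the test could not call. Residual C and A at the Dnmt1 target were not among the 13 values.

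The same sgRNAs were used in other groups, which allowed a comparison of the quadruple edit with fewer or more sites. Tet-TKO embryos (12 embryos, E7.5 to E10.5) received the 3 Tet sgRNAs, Dnmt1-KO embryos (8, E9.5 and E10.5) the Dnmt1 sgRNA, and 6KO embryos (9, E6.5 to E8.5) these 4 with sgRNAs for Dnmt3a and Dnmt3b. The supplement gives a higher editor mRNA concentration for 4KO and 6KO than for Tet-TKO and Dnmt1-KO. Each group has its own table, so group, table and, for the latter 2, mRNA concentration cannot be told apart. Of 9 comparisons 8 passed the threshold (88.9%, exact permutation tests with Benjamini-Hochberg adjustment over the 9).

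All 3 Tet targets were more fully converted in 4KO embryos. Against 6KO, the means were 99.65% and 96.86% for Tet1, 99.92% and 97.58% for Tet2, and 99.81% and 97.55% for Tet3, differences of 2.79, 2.34 and 2.26 points (adjusted exact p = 7.40e-05 for each, n = 9 against 9). Every 4KO embryo exceeded every 6KO embryo at each Tet target. Against Tet-TKO, Tet2 was higher by 1.33 points, again with no overlap (98.59% ± 0.565 in Tet-TKO, adjusted exact p = 7.40e-05, n = 9 against 12). Tet1 was higher by 1.53 points (98.11% ± 1.44, adjusted exact p = 0.00551, n = 9 against 12) and Tet3 by 1.02 points (98.79% ± 1.09, adjusted exact p = 0.00925, n = 9 against 12), both with overlap.

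The groups cover different stages, and the 3 E6.5 embryos of 6KO had the lowest stage mean for Tet2 (95.17% ± 2.14, against 99.02% at E7.5 and 98.55% at E8.5). With the stages that both groups hold (E7.5 and E8.5) and permutation within stage, the differences from 6KO were 2.56 points for Tet1, 1.13 for Tet2 and 1.598 for Tet3 (adjusted exact p = 0.00643 for each). Against Tet-TKO, over E7.5 to E9.5, all 3 also passed, with 1.59 points for Tet1 and 1.33 for Tet3 (adjusted exact p = 0.00113 for Tet1 and Tet2 and 0.00225 for Tet3).

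Dnmt1 conversion did not follow the Tet sites. It was lower in 4KO than in Dnmt1-KO embryos by 0.312 points (99.12% ± 0.369 against 99.43% ± 0.164, adjusted exact p = 0.0338, n = 9 against 8). This call was lost with the labelled embryos alone and when the 4KO embryos numbered 2, those of E8.5 or those of E9.5 were left out (adjusted exact p between 0.0802 and 0.123, n = 6 against 4 or 8). At E9.5, the stage that both groups hold, the difference was -0.140 points (adjusted exact p = 0.0321, n = 3 against 4). Its unadjusted p was the smallest that these numbers of embryos allow. Residual C at E9.5 was lower in 4KO, with means of 0.0968% against 0.510%, while A was higher, with means of 0.626% against 0.102%. The call was also lost with T out of T and C alone (difference -0.0650, adjusted exact p = 0.782, n = 9 against 8) and with shares rounded to 2 decimals (difference -0.25, adjusted exact p = 0.410, n = 9 against 8). Against 6KO the difference was -0.0339 points (99.16% ± 1.32 in 6KO, adjusted exact p = 0.956, n = 9 against 9), and the 6KO embryos ranged more widely, from 96.06% to 99.91%.

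The gap between the Tet sites and Dnmt1 therefore had opposite signs in 4KO and 6KO. It was above 0 in 9 of 9 4KO embryos (mean 0.668 ± 0.373 points) and below 0 in 8 of 9 6KO embryos (mean -1.83 ± 1.12), a difference of 2.50 points (adjusted exact p = 7.40e-05, n = 9 against 9). With the embryo number as a replicate block, the difference was the same 2.50 points. There the exact sign-flip permutation test over the 3 numbers gave an adjusted p of 0.281 and cannot go below an unadjusted 0.25, so none of the 8 calls passed.

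**Figure D5:**
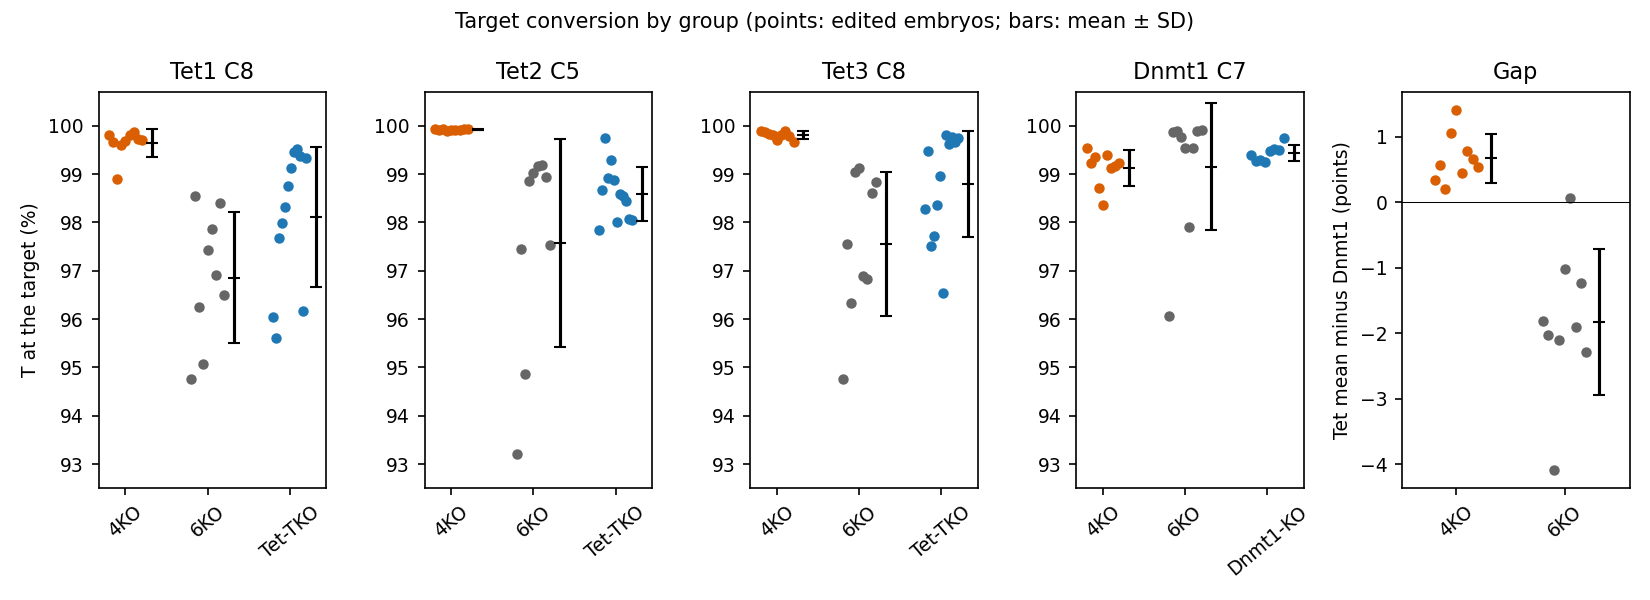
Share of T at each target (percent, axis not starting at 0) in edited embryos of the 4KO, 6KO and Tet-TKO or Dnmt1-KO groups, and the gap (mean of the 3 Tet sites minus Dnmt1, percentage points) in 4KO and 6KO embryos. Points are embryos and bars the mean with SD (n = 9 for 4KO and 6KO, 12 for Tet-TKO, 8 for Dnmt1-KO), and the gap lies above 0 in all 4KO embryos and below 0 in 8 of 9 6KO embryos.

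Fewer comparisons passed for bystanders than for targets. Of 18 comparisons over the 9 named changes, 1 passed (5.56%). The changes were named from the edited 4KO embryos alone, so the list leans to changes that are high in 4KO. A change frequent only in Tet-TKO, Dnmt1-KO or 6KO embryos could not enter it, which limits how any call here can be read. Tet2 C13T was at 1% to 26% in the 9 4KO embryos and listed at 0% in all 12 Tet-TKO embryos, a difference of 5.44 points (adjusted exact p = 6.12e-05, n = 9 against 12). The values are given in steps of 1 percentage point, and 5 of the 9 4KO embryos were at 1% or 2%. The same change was at 0% to 17% in 6KO embryos (adjusted exact p = 0.708, n = 9 against 9).

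The remaining bystanders overlapped between groups, with wide spreads. Tet2 C11T came nearest to the threshold, at 8.11% ± 12.9 in 4KO and 0.111% ± 0.333 in 6KO (difference 8 points, exact permutation p = 0.00905, adjusted 0.0814, n = 9 against 9). It passed without the 4KO embryos numbered 3 and without those of E9.5 (differences of 11.4 and 11.6 points, adjusted exact p = 0.0180 for each, n = 6 against 9), and without those numbered 1 it was 2.22 points (adjusted exact p = 0.210, n = 6 against 9). Dnmt1 C3T averaged 75.8% ± 13.1 in 4KO, 78.9% ± 12.4 in Dnmt1-KO and 82.2% ± 20.2 in 6KO. Tet1 C4T averaged 38.7% ± 22.03 in 4KO, 31.4% ± 15.98 in Tet-TKO and 34.2% ± 20.7 in 6KO. At Tet3 C7, T averaged 37.3% ± 20.6 in 4KO, 58.0% ± 30.3 in Tet-TKO and 54.7% ± 23.98 in 6KO, while G averaged 46.4% ± 23.8, 35.4% ± 24.1 and 25.4% ± 24.7. None of the differences at Dnmt1 C3, Tet1 C4 and Tet3 C7 passed the test (adjusted exact permutation p between 0.351 and 0.708, n = 8 to 12 in each group). With T out of T and C alone, Tet3 C7T was instead higher in 4KO, by 17.9 points against 6KO (adjusted exact p = 3.70e-04, n = 9 against 9) and by 7.44 points against Tet-TKO (adjusted exact p = 0.269, n = 9 against 12), a measure that leaves out the G and A reads. No 4KO embryo kept C there, so T was all of T and C in each of them. These differences thus reflect C left in the other groups and not more T in 4KO.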

How the data were processed

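Amplicons of genomic DNA from single embryos were prepared with barcoded PCR products and sequenced with paired-end reads by the authors. The deposited values are fractions from 0 to 1, the share of reads with each base at 26 positions for each embryo and gene, with 2 decimals at most positions and more at the target. The submitters' processing notes name mm10. Aligner, filters and read numbers are not given in the sources used here, and reads carried no molecular identifiers. Indels have no line in the tables and were not analysed here.

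Fractions were multiplied to percent (Python 3.11.15, numpy 2.4.6). The sum over the 4 bases departed from 1 by at most 0.01. Names ending in C were read as controls, since the study shows control and numbered embryos side by side under such names, and the numbered ones as edited. Windows were matched to GRCm38.p6, the same chromosomes as mm10, and annotated with GENCODE M21. Tests were exact permutation tests over embryos (differences in means, sign flips within embryos, between-stage variance), two-sided, with Benjamini-Hochberg adjustment inside each family and a threshold of 0.05, and were tested on simulated data. Embryos are separate animals, but whether embryos shared a litter or an injection day is not stated. All 4 genes and targets are named, and a bystander base change where its mean over the edited 4KO embryos was at least 5% or a single one of them had at least 10%. The last change inside that rule was Tet3 C-2T, with a mean of 3.33% and a highest value of 24%, and the first outside was T at Dnmt1 position 16, with a mean of 0.444% and a highest value of 1%. Members, lists and tests were chosen with earlier results of these data known.

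Deviations of same-numbered embryos from their group means correlated between 4KO and 6KO over 13 measures (r = 0.272, 0.334 and 0.360 for numbers 1, 2 and 3), and between 4KO and Tet-TKO over 11 measures at -0.287, -0.0440 and -0.358. The numbers name embryos, and the labels give no shared litter or day. The measures are not independent, since they include T, G and A at the same base. Whether same-numbered embryos of different groups share anything was not tested, and no conclusion is drawn from these correlations. Alternatives covered the denominator, log odds, rounding, labelled embryos only, each number and stage left out, and the replicate block.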

Additional observations from a re-analysis of the deposited data

Results flagged for a closer look

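For normally distributed values, chance sets about 1 in 20 groups apart by the gap criterion used here. It asks whether the end embryo of 9 lies further from its neighbour than Dixon's 95% critical value for that number of embryos. Tet1 C2T, Tet2 C11T and Tet3 C-2T were at 0% in 5, 3 and 4 of the 9 embryos, so that rate need not hold for such shares. Of 27 sets of 9 edited 4KO embryos, 6 were set apart, some of them related. Among these, Tet1 C2T, Tet2 C13T and Tet3 C-2T were named as bystander changes only because of the embryo set apart. A change named for a single high embryo tends to show such a gap by selection. The 6 of 27 thus cannot be set against 1 in 20, and no conclusion is drawn from that count. At Tet1, E7.5 embryo 3 had the lowest target T share (98.90%, next 99.61%) and the highest G share there (0.971%, next 0.134%). Tet1 C2T was 38% in E9.5 embryo 1, with 4% as the next value. Tet2 C11T was 40% in E8.5 embryo 1 (next 16%). Tet2 C13T was 26% in E7.5 embryo 3 (next 9%), and Tet3 C-2T was 24% in the same embryo (next 2%). The causes were not tested.

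The gap between the Tet sites and Dnmt1 differed between 4KO and 6KO embryos by 2.50 percentage points in the direct test of that difference (adjusted exact permutation p = 7.40e-05, n = 9 against 9), being above 0 in 9 of 9 4KO embryos and in 1 of 9 6KO embryos.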

How the results depend on the processing

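The differences from control embryos, the gap between the Tet sites and Dnmt1, and its difference from 6KO kept their direction and their side of the threshold under T out of T and C, log odds, rounding, labelled embryos only and each stage or number left out. The exceptions for the gap and for its difference from 6KO are given next.

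Averaging all C of positions 4 to 8 in place of the target turned the gap to -19.9 points. That mean includes Tet1 C4, which was partly converted, and Tet3 C7, where no C was left but T shared the reads with G and A. With means of the labelled samples, 2 against 2, the gap differed from 6KO by 2.49 points and 0 of 9 group comparisons passed, where p cannot go below 0.333. With the replicate block, that difference was 2.50 points, and 0 of the 9 target and 0 of the 18 bystander comparisons passed over 3 numbers.

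The count of 5 reference C positions rests on the smallest p that the embryos allow. It ranged from 0 to 6 with the embryos of 1 number left out (0 without number 1 or 2). It was 0 without any 1 stage, 0 without the E7.5 control embryo, a choice made after seeing the data, and 0 of 104 when every window position was tested on its non-reference share. In each setting with a count of 0, the smallest possible p was too large for 5 positions alone to pass the adjustment. With shared stages only, all 8 target calls against other groups remained, with Tet2 against 6KO at 1.13 points. Without a test, 10 positions had a mean at least 5 points above every control.

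Residual C (Tet mean minus Dnmt1) was -0.502 in the labelled embryos, -0.345 without E7.5 and -0.266 without E8.5, and ranged from -0.502 to -0.300 with 1 number left out, each with an exact permutation p no longer under 0.05 except without number 1. The number of bystander comparisons passing was 2 with T out of T and C (Tet3 C7T against 6KO in addition), 2 without E9.5, and 1 to 2 with 1 number left out (Tet2 C11T against 6KO in addition).

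Some differences that had not passed changed sign. With T out of T and C, Tet3 C7T was 7.44 points above Tet-TKO and 17.9 above 6KO, and the latter then passed (adjusted exact permutation p = 3.70e-04). No edited 4KO embryo kept C there, so these differences reflect C left in the other groups and not more T in 4KO. In labelled embryos, Tet1 C2T was 2 points above Tet-TKO and 4.5 above 6KO, Tet3 C-2T was at -0.333 against 6KO, and Dnmt1 C3T at 2.75 against Dnmt1-KO. Without E7.5, the differences were 0.917 for Tet1 C2T against Tet-TKO and, against 6KO, -2.56 for Tet1 C4T, -0.667 for Tet2 C13T and -0.389 for Tet3 C-2T. Without E8.5, Dnmt1 conversion was 0.117 above 6KO and Tet1 C2T 0.25 above Tet-TKO. With 1 number left out, the ranges were -0.136 to 0.0682 for Dnmt1 conversion and, against 6KO as well, -2.56 to 13.8 for Tet1 C4T and -0.167 to 3.33 for Tet2 C13T. Against Tet-TKO they were -5.42 to 0.25 for Tet1 C2T and -0.0833 to 9.08 for Tet2 C11T, and against Dnmt1-KO -6.54 to 0.625 for Dnmt1 C3T. Causes were not tested. Unknown depth and steps of 1 percentage point limit all bystander values.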
